A study of Homo sapiens with 6 samples.

Results

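The integrated stress response works through a small set of transcription factors and the genes they induce, some of which act back on them. Examined here were 10 of these genes: ATF4, ATF3, ATF5, DDIT3, CEBPB, CEBPG, NUPR1, TRIB3, CHAC1 and PPP1R15A. They were taken by gene symbol from a count table of 17534 genes, and all 10 symbols were found. RNA sequencing had been performed on NCI-H1703, which the labels give as a line of squamous lung cancer cells. The 3 libraries with the genotype label Sh-PPM1G came from cells in which PPM1G was targeted by short hairpin RNA (shRNA). PPM1G encodes a nuclear serine/threonine phosphatase of the PP2C family. The 3 libraries they were set against carry the genotype label Sh-NC, while the series text calls the control cells wild-type, and they are called control libraries below. How many hairpins were used, their sequence and the culture behind each library are not given in the labels, so the spread between libraries may be technical.

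In the integrated stress response, kinases that sense endoplasmic reticulum stress, amino acid shortage, double-stranded RNA or haem shortage phosphorylate the alpha subunit of the translation factor eIF2. General translation then falls, while the mRNA of ATF4 is translated more efficiently because of short reading frames upstream of its coding sequence. ATF4 and its C/EBP family partners bind composite C/EBP-ATF response elements and switch on genes for amino acid supply, tRNA charging and further regulators, and PPP1R15A closes the loop by bringing a phosphatase back to eIF2. The libraries measured mRNA only, so neither eIF2 phosphorylation nor the translation of ATF4 was observed. In bulk libraries, a larger share of cells expressing a gene and more RNA of that gene per cell cannot be told apart.

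The hairpin target and the identity of the cells were checked first. PPM1G had 182, 194 and 188 CPM (counts relative to the library total, scaled by TMM factors) in PPM1G shRNA libraries 1 to 3, against 333, 308 and 324 CPM in control libraries 1 to 3. It was lower in every shRNA library and fell by 0.77 on the log2 scale (SE 0.03, adjusted p = 3.35e-20 in edgeR's quasi-likelihood test), to 0.585 of the control level. Library totals ran from 31337553 to 35838246 counts in the shRNA group and from 35456562 to 35716901 in the control group. Squamous markers were low, with TP63 at 0.835 CPM in shRNA and 1.54 CPM in control libraries and KRT14 at no more than 2 counts in any library, and SOX2, at 10.6 CPM in shRNA and 22.7 CPM in control libraries, was the only one of the 6 markers read that was above 2 CPM. Of 4 lung adenocarcinoma markers, NKX2-1 stood at 121 CPM in shRNA and 114 CPM in control libraries and NAPSA at 21.8 and 2.16 CPM, while SFTPB had 5 counts in each group and SFTPC had 0 counts in every library. Most squamous markers were thus near 0, and the adenocarcinoma markers were mixed. Of 4 epithelial markers, KRT8 had 189 CPM in shRNA and 214 CPM in control libraries, and KRT18 had 110 and 98.7 CPM. EPCAM had 10.7 and 11.2 CPM in these groups, and CDH1 only 0.313 and 0.310 CPM. The summed level of 6 fibroblast markers was 355 to 362 CPM in shRNA libraries against 159 to 176 CPM in control libraries, nearly all of it COL1A1. PDGFRB was also higher, at 9.48 CPM in shRNA and 3.95 CPM in control libraries. COL1A2 ran the other way, at 3.96 CPM in shRNA and 6.42 CPM in control libraries, and LUM had at most 1 count in a library. COL3A1 (0.161 CPM in shRNA and 0.0582 CPM in control libraries) and DCN (0.307 and 0.165 CPM) were near 0 in both groups. Of 4 endothelial markers, PECAM1 had 1.07 CPM in shRNA and 5.31 CPM in control libraries, while VWF had 2.58 and 0.524 CPM. KDR (0.429 CPM in shRNA and 0.126 CPM in control libraries) and CDH5 (0.0270 and 0.0290 CPM) were low in both groups. The summed level of 5 leukocyte markers was 551 to 583 CPM in shRNA libraries against 1244 to 1301 CPM in control libraries, nearly all of it the lysosomal gene CD68. The defining leukocyte gene PTPRC had at most 5 counts in a library, and the part of these shifts in the values below was not tested.

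Stretches of RefSeq promoter sequence (GRCh38.p14) are shown for 5 of the genes because they hold the motifs through which ATF, CREB and CCAAT-binding factors are known to act. Capitals mark the matches, each sequence is read 5′ to 3′ on the strand of its gene, and the windows lie at chr15:40953221-40953312 (plus strand) for CHAC1, chr1:212565180-212565259 (plus) for ATF3, chr19:33374060-33374089 (plus, at the second annotated start) for CEBPG, chr19:48872327-48872406 (plus) for PPP1R15A and chr12:57520561-57520640 (minus) for DDIT3.
CHAC1: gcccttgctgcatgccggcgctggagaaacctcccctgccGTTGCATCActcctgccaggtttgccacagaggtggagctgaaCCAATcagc
ATF3: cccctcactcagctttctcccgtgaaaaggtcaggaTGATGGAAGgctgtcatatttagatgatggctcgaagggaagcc
CEBPG: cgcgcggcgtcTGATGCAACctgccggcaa
PPP1R15A: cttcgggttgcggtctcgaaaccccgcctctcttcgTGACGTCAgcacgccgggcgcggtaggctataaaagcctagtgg
DDIT3: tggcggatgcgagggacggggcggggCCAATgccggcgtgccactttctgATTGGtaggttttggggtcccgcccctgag

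Promoters were searched on both strands from 250 bases before to 50 bases after each annotated start, and 9 of the 10 genes had at least 1 promoter in the table, 18 promoters in all. The C/EBP-ATF response element, searched as TGATGNAAN, was present for 3 of the 9 genes. It began 191 bases before the first annotated start of ATF3 and 42 bases before the second start of CEBPG. In CHAC1 it lay 210 bases before the start on the opposite strand, so the strand of the gene reads GTTGCATCA there. The other annotated starts of ATF3 and CEBPG had no match to it, and which start these cells use was not tested. Of all 35116 promoters in the table, 3.61% hold this motif, and 4.45% of the 27305 genes have it in at least 1 promoter. The full cyclic AMP response element, TGACGTCA, was found for PPP1R15A alone, 58 bases before its start, and is held by 1.85% of all promoters. CCAAT occurred in 7 of the 18 promoters, those of ATF3, DDIT3, CEBPB, CEBPG and CHAC1, and in 34.6% of all promoters. In DDIT3 it was present on both strands, 100 and 76 bases before the first start, and none of these motifs overlapped another. Matches of this kind describe letters in a window and say nothing about binding in these cells.

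To describe how the response genes stood at the lower PPM1G level, each was read in every library. All 10 genes had higher CPM values in every PPM1G shRNA library than in any control library. Of the 13060 genes tested across the whole table, 41.9% were higher without overlap and 83.7% were separated in either direction, and 82.9% passed edgeR's test. The 10 genes had been chosen by their counts in this same comparison, so their values are given as a description, with no test, and nothing is read from their count. Together they took 0.291%, 0.287% and 0.286% of all counts in shRNA libraries 1 to 3, against 0.0469%, 0.0450% and 0.0445% in control libraries 1 to 3. Most of these counts, in every library, were those of PPP1R15A and ATF4. Of the 10, 9 passed the low-count filter and TRIB3 did not.

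**Figure D1:**
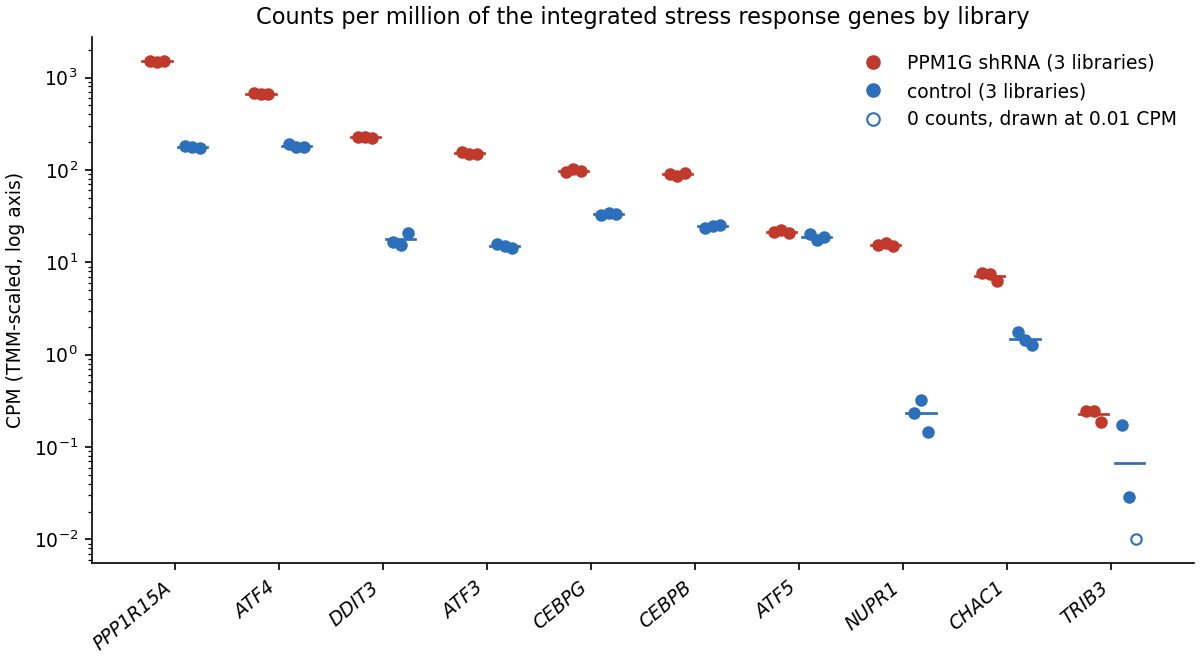
CPM of the 10 genes (log axis, TMM-scaled) in the 3 PPM1G shRNA libraries (red) and the 3 control libraries (blue). Points are libraries and bars are group means. The groups are far apart for NUPR1 (15.5 against 0.233 CPM) and close for ATF5 (21.5 against 18.9 CPM), and 1 control library without a TRIB3 count is drawn as an open circle.

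ATF4, the factor at the centre of the response, was followed first (Entrez 468; chromosome 22, positions 39520559 to 39522686, plus strand, GRCh38.p14). It had 22077, 24865 and 24507 counts in PPM1G shRNA libraries 1 to 3, against 6609, 6146 and 6082 counts in control libraries 1 to 3. After scaling, these were 682, 672 and 660 CPM in shRNA libraries and 193, 179 and 176 CPM in control libraries. The 3 shRNA libraries lay close together, and the highest control library, control 1, was far below them. The difference was 1.88 on the log2 scale (SE 0.03), a 3.67-fold higher level in shRNA libraries. ATF4 has 4 annotated pseudogenes, and no source used here says how reads shared with them were counted.

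The C/EBP family members that pair with ATF4 were CEBPB and CEBPG. CEBPB, which encodes C/EBP beta, an activator in inflammatory and metabolic programmes (chromosome 20, positions 50190583 to 50192690), had 91.3, 87.0 and 93.3 CPM in shRNA libraries against 23.4, 24.5 and 25.5 CPM in control libraries. CEBPG, which encodes C/EBP gamma, a short family member that works mainly as a dimer partner (chromosome 19, positions 33373709 to 33382686), had 94.7, 101 and 96.2 CPM in shRNA libraries against 32.7, 34.2 and 33.0 CPM in control libraries. For both genes, the lowest shRNA library stood well above the highest control library. The log2 differences were 1.89 (SE 0.05) for CEBPB and 1.55 (SE 0.05) for CEBPG, or 3.70-fold and 2.93-fold. CEBPB shares 1487 bases with the antisense transcript CEBPB-AS1, and reads from the pair cannot be told apart unless counting used strand.

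DDIT3 and ATF3 act downstream of ATF4 and had larger differences. DDIT3 encodes CHOP, a C/EBP-related factor linked to cell death under prolonged stress (Entrez 1649; chromosome 12, positions 57516588 to 57520517, minus strand). It had 227, 228 and 224 CPM in shRNA libraries against 16.8, 15.3 and 21.0 CPM in control libraries. The shRNA libraries differed little from one another, while control library 3 stood above the other control libraries. The coefficient of variation of DDIT3 was 1.11% in the shRNA group and 16.6% in the control group, where counting error alone gives 4.06%. The log2 difference was 3.68 (SE 0.08), or 12.8-fold, and it was 3.82 without control library 3. DDIT3 shares 65 bases with MARS1, the methionyl-tRNA synthetase gene, which had a smaller log2 difference of 0.76 (SE 0.03), and it also overlaps MIR616. The annotation further places the protein-coding gene LOC128125814 over 2769 bases of DDIT3, and LOC128125814 is not among the genes analysed here, so reads of the pair were not separated.

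ATF3 encodes a bZIP factor that is quickly induced by many stresses and often acts as a repressor (Entrez 467; chromosome 1, positions 212565407 to 212620777, plus strand). It had 155, 150 and 150 CPM in shRNA libraries against 15.7, 15.0 and 14.2 CPM in control libraries. Neither group showed a library apart from its fellows, and the groups were far from overlapping. The log2 difference was 3.34 (SE 0.05), or 10.1-fold. Among the 13060 tested genes ordered by their log2 fold change, DDIT3 was at position 40 and ATF3 at position 51, while CEBPB, ATF4 and CEBPG were at positions 394, 402 and 636.

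ATF5, a bZIP factor whose mRNA is also under translational control by eIF2 and which is linked to mitochondrial stress, stood apart from the others (Entrez 22809; chromosome 19, positions 49928906 to 49933935, plus strand). It had 687, 821 and 778 counts in shRNA libraries against 700, 599 and 647 counts in control libraries. On the CPM scale this was 21.2, 22.2 and 20.9 in shRNA libraries against 20.4, 17.5 and 18.8 in control libraries. Control library 1 nearly reached the lowest shRNA library, and the raw counts of the groups overlapped. The log2 difference was 0.18 (SE 0.07), or 1.14-fold, at position 5372 of the tested genes. ATF5 shares 599 bases at its start with NUP62 and with IL4I1 on the opposite strand. NUP62, a nuclear pore gene, was lower in shRNA libraries by a log2 difference of −0.58 (SE 0.04), and IL4I1 had −0.15 (SE 0.35, adjusted p = 0.687).

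NUPR1 encodes a small stress-inducible chromatin-associated protein and had the highest log2 fold change of all 13060 tested genes (Entrez 26471; chromosome 16, positions 28532708 to 28538974, minus strand). It had 503, 600 and 553 counts in shRNA libraries against 8, 11 and 5 counts in control libraries. That is 15.5, 16.2 and 14.9 CPM in shRNA libraries against 0.233, 0.321 and 0.145 CPM in control libraries. The control libraries thus held only a handful of reads each, and the shRNA libraries were tightly grouped. The log2 difference was 6.04 (SE 0.18), and the ratio of scaled counts was 66.8, with 95% limits of 44.7 and 104 from counting error alone.

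CHAC1 and TRIB3 are targets of ATF4 and CHOP. CHAC1, an enzyme that degrades glutathione (Entrez 79094; chromosome 15, positions 40953471 to 40956512, plus strand), had 247, 274 and 235 counts in shRNA libraries against 60, 49 and 44 counts in control libraries. This gave 7.63, 7.40 and 6.33 CPM in shRNA libraries against 1.75, 1.43 and 1.28 CPM in control libraries. The lowest shRNA library, shRNA 3, remained well above control library 1, the highest of its group. The log2 difference was 2.26 (SE 0.16), or 4.78-fold.

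TRIB3, a pseudokinase that binds ATF4 and CHOP and dampens them (Entrez 57761; chromosome 20, positions 380760 to 397559, plus strand), was barely detected. It had 8, 9 and 7 counts in shRNA libraries against 6, 1 and 0 counts in control libraries. Control library 1 came close to the shRNA libraries, and the absence of counts in control library 3 allows up to 0.0870 CPM when the limit for a count of 0 is taken as 3 counts. The 24 shRNA counts and 7 control counts gave a scaled ratio of 3.32, with 95% limits of 1.39 and 9.12 from counting error alone. At this depth the size of a TRIB3 difference was therefore poorly determined.

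PPP1R15A encodes GADD34, the inducible subunit that directs protein phosphatase 1 to eIF2 (Entrez 23645; chromosome 19, positions 48872421 to 48876058, plus strand). It had 49235, 55058 and 55417 counts in shRNA libraries against 6232, 6112 and 5878 counts in control libraries. On the CPM scale this was 1522, 1487 and 1492 in shRNA libraries against 182, 178 and 171 in control libraries. Each group's libraries lay within a narrow band, and the bands were far apart. The log2 difference was 3.08 (SE 0.03), or 8.48-fold, at position 67 of the tested genes. Its constitutive paralog PPP1R15B averaged 92.9 ± 1.5 CPM in shRNA and 48.3 ± 2.0 CPM in control libraries (SD, n = 3 each), and rose by a smaller log2 difference of 0.94 (SE 0.04, adjusted p = 2e-19 in edgeR's quasi-likelihood test). The difference between the paralogs' responses was not tested.

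Levels of different genes were set side by side only per length, on the deposited FPKM scale, which divides counts by gene length and library total. In shRNA libraries the order was PPP1R15A at 661 ± 6.7 FPKM, DDIT3 at 258 ± 2.9, ATF4 at 90.1 ± 1.3, ATF3 at 54.7 ± 0.89, CEBPB at 44.5 ± 1.6, CEBPG at 23.4 ± 0.85, ATF5 at 8.03 ± 0.25, NUPR1 at 3.01 ± 0.13, CHAC1 at 1.98 ± 0.19 and TRIB3 at 0.0758 ± 0.011 (SD, n = 3). No neighbours in that order overlapped. In control libraries the order was PPP1R15A at 72.7 ± 2.4 FPKM, ATF4 at 22.9 ± 1.1, DDIT3 at 18.8 ± 3.1, CEBPB at 11.2 ± 0.48, CEBPG at 7.48 ± 0.19, ATF5 at 6.60 ± 0.51, ATF3 at 5.04 ± 0.25, CHAC1 at 0.385 ± 0.063, NUPR1 at 0.0421 ± 0.016 and TRIB3 at 0.0213 ± 0.029. Here the ranges of ATF4 and DDIT3 overlapped, as did those of NUPR1 and TRIB3. On this scale ATF3 stood above CEBPB, CEBPG and ATF5 in shRNA libraries and below all of them in control libraries, and NUPR1 stood above CHAC1 in shRNA libraries only.

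These orders depend on the gene lengths behind the deposited values. The length implied by counts, FPKM and library totals was 7713 bases for ATF4 and 3722 bases for CHAC1. In RefSeq these genes span only 2128 and 3042 bases. Against those spans, the deposited FPKM understates both genes. Such an excess over the gene span occurred in 62 of 17038 genes (0.364%). With the summed GENCODE exon length in its place, which is 2514 bases for ATF4, ATF4 stood at 276 ± 4.1 RPKM in shRNA libraries and 70.2 ± 3.3 RPKM in control libraries. It was then above DDIT3 in both groups, at 179 ± 2.0 RPKM in shRNA and 13.1 ± 2.2 RPKM in control libraries, and above PPP1R15A in control libraries (55.2 ± 1.8 RPKM). With these lengths ATF3, at 38.8 ± 0.63 RPKM in shRNA libraries, was below CEBPB at 47.9 ± 1.7 RPKM, and NUPR1, at 2.84 ± 0.12 RPKM, was below CHAC1 at 3.58 ± 0.35 RPKM, so both of these shRNA orders depend on the length used. Fold changes within a gene are not touched by the length.

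The make-up of the 6 bZIP transcripts (ATF4, ATF3, ATF5, DDIT3, CEBPB and CEBPG) was then described, because these proteins form dimers with one another. Their summed level was 479 ± 3.1 FPKM in shRNA libraries and 72.0 ± 2.9 FPKM in control libraries (SD, n = 3 each). DDIT3 held 53.7%, 54.3% and 53.7% of this sum in shRNA libraries 1 to 3, against 24.6%, 23.7% and 29.8% in control libraries 1 to 3. ATF4 held 19.0%, 18.8% and 18.7% in shRNA libraries against 33.3%, 32.6% and 29.5% in control libraries. The share of DDIT3 was thus higher, and that of ATF4 lower, in every shRNA library than in any control library. ATF3 also took a larger share, 11.4% in shRNA and 7.01% in control libraries, while CEBPB took 9.29% and 15.6%, CEBPG 4.90% and 10.4%, and ATF5 1.68% and 9.16%. With GENCODE exon lengths, DDIT3 held 31.3% in shRNA and 11.6% in control libraries, and ATF4 held 48.3% and 62.5%. The direction of each share was then the same, but ATF4 and not DDIT3 was the most abundant transcript of the 6 in shRNA libraries. The deposited share of ATF4 rests on a length beyond its RefSeq gene span, and is understated against that span. A share can fall while the transcript itself is higher, as it did for ATF4, CEBPB, CEBPG and ATF5.

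**Figure D2:**
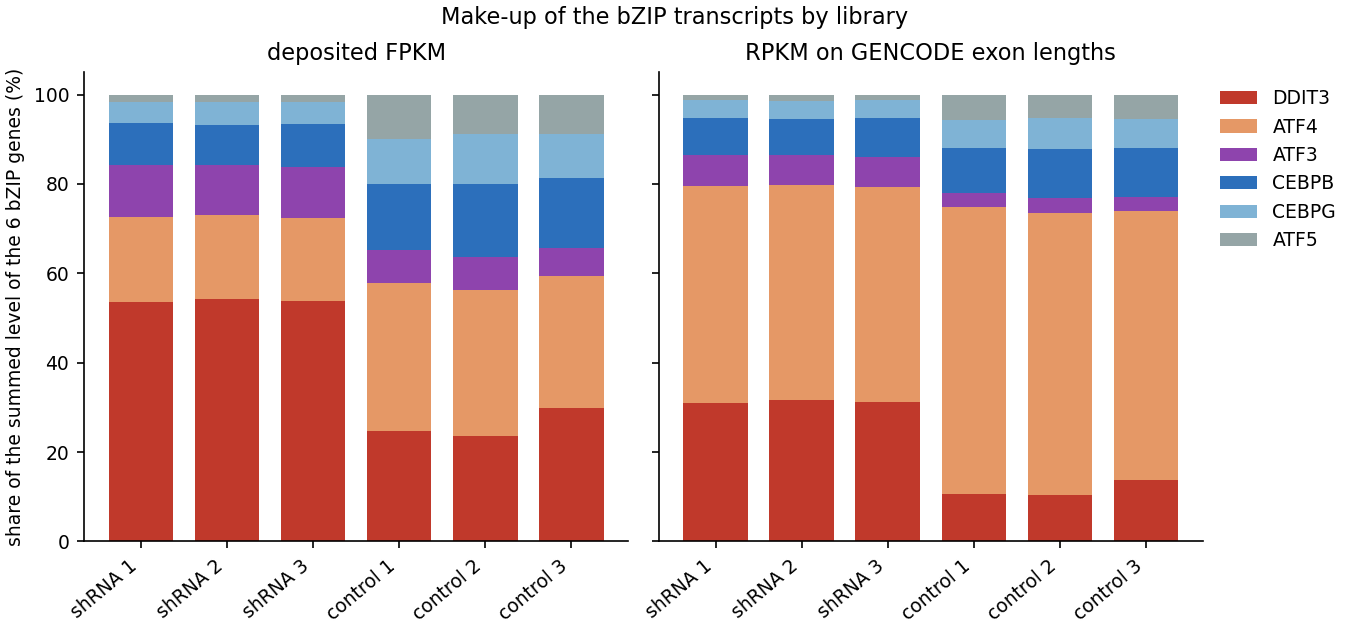
Share (%) of the summed per-length level of 6 bZIP genes held by each, for PPM1G shRNA libraries 1 to 3 (left of each panel) and control libraries 1 to 3 (right of each panel), with deposited FPKM on the left and GENCODE exon lengths on the right. The DDIT3 segment is larger in shRNA libraries in both panels (53.9% against 26.0%, and 31.3% against 11.6%), while its place relative to ATF4 differs between the panels. The length behind the deposited FPKM of ATF4 (7713 bases) exceeds its RefSeq gene span (2128 bases), so the left panel understates ATF4 against that span.

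Libraries did not rank alike over the genes. PPM1G shRNA library 1 was the highest of its group for 5 of the 10 genes and shRNA library 3 the lowest for 6. Control library 1 was the highest of its group for 6 genes and control library 3 the lowest for 6, although it was the highest for DDIT3 and CEBPB. Counts of the same group differed by more than sampling noise in every pair of libraries, and control library 3 was farthest from its fellows, at chi-square values of 6.44 and 5.88 per degree of freedom against 3.24 for the other pair. The coefficient of variation in the shRNA group ran from 1.11% for DDIT3 to 14.5% for TRIB3, and the lowest values belonged to DDIT3, PPP1R15A and ATF4. Counting error alone gives 1.12% for DDIT3 and 35.4% for TRIB3 in that group, so this range partly reflects how many reads each gene had.

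To describe the regions around the genes, the nearest tested gene on each side that does not overlap it was read. Of 20 such neighbours, 13 rose, 6 fell and 1 was not called, with TMM scaling and adjusted p under 0.05, and their median log2 fold change was 0.15. For comparison, 41.5% of all tested genes rose and 41.3% fell. The neighbours lay 197 to 317692 bases away. Only TBC1D17 and GPATCH1 were at least 2-fold higher. TBC1D17, a Rab GTPase-activating protein gene, lay 40155 bases from ATF5 (1.18, SE 0.05). GPATCH1, a splicing-related gene, lay 243166 bases from CEBPG (1.06, SE 0.08). MBD6, the neighbour 197 bases from DDIT3, had 0.30 (SE 0.06), MIEF1 beside ATF4 had −0.21 (SE 0.08), and CLN3 and SGF29 on either side of NUPR1 had 0.58 (SE 0.05) and −0.50 (SE 0.09). ATF5 had a smaller log2 fold change than TBC1D17. Since the response genes were chosen by this comparison, their standing against these neighbours is given as a description only.

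**Figure D3:**
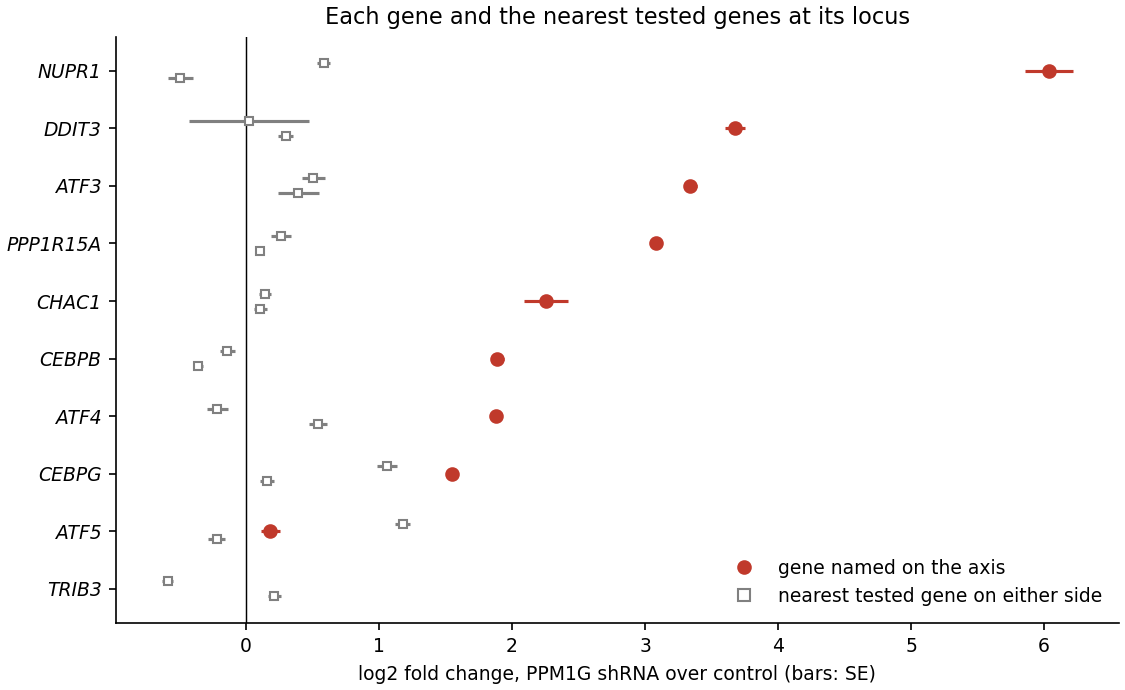
Log2 fold change (PPM1G shRNA over control, bars are SE) of each response gene (filled circles) and of the nearest tested gene on either side (open squares). TRIB3 was not tested and has neighbours only; the squares lie between −0.59 and 1.18, while the circles reach 6.04 for NUPR1.

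The other genes of the pathway were read from lists by role, against a background in which 41.5% of all 13060 tested genes rose and 41.3% fell. Upstream, 9 genes for eIF2 kinases and their activators were tested, of which 2 rose, 5 fell and 2 were not called, with a median log2 fold change of −0.15 against 0.01 over all genes tested. EIF2AK3, which encodes PERK, the kinase of endoplasmic reticulum stress, averaged 51.6 ± 2.1 CPM in shRNA and 36.6 ± 1.1 CPM in control libraries (log2 fold change 0.50, SE 0.05, adjusted p = 9.39e-11). OMA1, a mitochondrial protease that cleaves DELE1, rose by 0.71 (SE 0.07, adjusted p = 1.1e-11), whereas DELE1, the messenger of mitochondrial stress, fell by 0.38 (SE 0.05, adjusted p = 5.58e-08). GCN1, the activator of the amino acid sensor GCN2, averaged 177 ± 3.4 CPM in shRNA and 292 ± 16 CPM in control libraries and fell by 0.72 (SE 0.03, adjusted p = 1.2e-18). EIF2AK1, EIF2AK2 and EIF2AK4, the other kinase genes, named after their values were seen, had log2 fold changes of −0.15, −0.18 and −0.20. With library totals as the scaling, or on log2(FPKM + 1), 4 genes of the list rose and 3 fell.

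The machinery that the kinases act on was read next. Of 14 genes for eIF2, its exchange factor eIF2B and the eIF2 phosphatase, 5 rose, 8 fell and 1 was not called, with a median of −0.10, beside 41.5% and 41.3% of all genes that rose and fell. The largest rise was that of EIF5, the GTPase-activating protein of eIF2, at 1047 ± 11 CPM in shRNA and 339 ± 7.2 CPM in control libraries (1.63, SE 0.03, adjusted p = 1.63e-31). EIF2B4, a subunit of eIF2B, rose by 0.66 (SE 0.05, adjusted p = 1.49e-14). PPP1CC, a catalytic subunit of protein phosphatase 1, averaged 88.9 ± 2.1 CPM in shRNA and 185 ± 2.7 CPM in control libraries and fell by 1.06 (SE 0.03, adjusted p = 1.72e-23).

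Among other bZIP factors of the ATF, CREB, C/EBP and partner families, 34 of 38 genes were tested, and 26 rose and 8 fell, with a median of 0.63, where 41.5% of all genes rose and 41.3% fell. NFIL3, a repressor known from circadian and immune programmes, averaged 413 ± 4.8 CPM in shRNA and 62.5 ± 1.8 CPM in control libraries (2.72, SE 0.03, adjusted p = 8.88e-35). DBP, a circadian activator at the same D-box elements, averaged 51.5 ± 2.0 CPM and 10.3 ± 0.57 CPM in these groups (2.32, SE 0.06, adjusted p = 1.81e-25). In the other direction, FOSL1, a FOS family member downstream of MAP kinase signalling, averaged 186 ± 6.7 CPM in shRNA and 782 ± 52 CPM in control libraries (−2.07, SE 0.04, adjusted p = 6.02e-19), and CREB5 averaged 1.43 ± 0.43 CPM and 18.9 ± 1.2 CPM (−3.71, SE 0.13, adjusted p = 7.4e-22).

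The effector genes of the response, which carry out amino acid synthesis and transport, tRNA charging, secretion of stress hormones and cell death, were the group farthest downstream. Of 51 genes 47 were tested, and 33 rose, 20 of them at least 2-fold, 8 fell and 6 were not called, with a median log2 fold change of 0.76 against 0.01 over all genes. Of all tested genes, 41.5% rose, 41.3% fell and 11.8% rose at least 2-fold. This list, like the others, was chosen with earlier results of these data known. ASNS, asparagine synthetase, averaged 397 ± 6.5 CPM in shRNA and 59.0 ± 1.2 CPM in control libraries (2.75, SE 0.03, adjusted p = 8.64e-35). AARS1, the alanyl-tRNA synthetase gene, averaged 1401 ± 9.99 CPM and 294 ± 6.3 CPM in these groups (2.25, SE 0.03, adjusted p = 7.42e-35). SLC7A5, an amino acid transporter gene, rose by 2.63 (SE 0.05, adjusted p = 2.58e-28), and PCK2, mitochondrial phosphoenolpyruvate carboxykinase, by 2.17 (SE 0.05, adjusted p = 1.05e-27). Of the secreted factors, INHBE averaged 41.3 ± 2.5 CPM in shRNA and 2.79 ± 0.22 CPM in control libraries (3.89, SE 0.09, adjusted p = 9.6e-28), while GDF15 rose by 3.85 (SE 0.14, adjusted p = 9.38e-22) and STC2 by 2.38 (SE 0.04, adjusted p = 1.17e-31). BBC3, which encodes the pro-apoptotic PUMA, rose by 2.17 (SE 0.14, adjusted p = 2.6e-11).

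Part of the effector list did not rise. The 3 genes that fell at least 2-fold, named after their values were seen, were VLDLR, a lipoprotein receptor gene (−2.13, SE 0.05, adjusted p = 7.83e-28), ERO1A, an oxidase of the endoplasmic reticulum (−1.04, SE 0.04, adjusted p = 1.74e-22), and PSPH, the last enzyme of serine synthesis (−1.01, SE 0.07, adjusted p = 7.45e-15). Genes without a call, or not tested, were likewise named after their values were seen. The mitochondrial folate enzyme gene MTHFD2 had 58.7 ± 3.4 CPM in shRNA and 58.5 ± 1.0 CPM in control libraries (0.00, SE 0.05, adjusted p = 0.959), and PYCR1, of proline synthesis, had 46.5 ± 2.8 and 47.0 ± 2.3 CPM (−0.02, SE 0.05, adjusted p = 0.776). The first enzymes of serine synthesis were scarcely detected in either group. PHGDH averaged 0.221 ± 0.10 CPM in shRNA and 0.204 ± 0.029 CPM in control libraries, and PSAT1 averaged 0.0515 ± 0.089 and 0.0194 ± 0.017 CPM. Neither of these was tested.

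**Figure D4:**
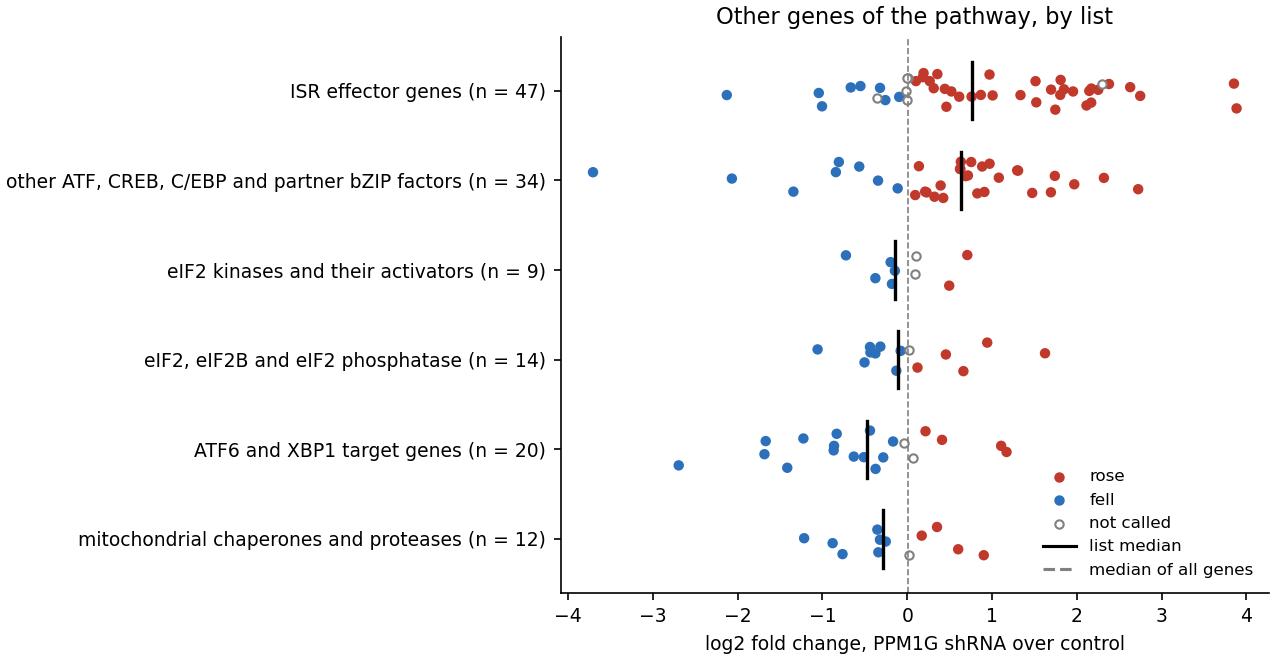
Log2 fold change (PPM1G shRNA over control) of every tested gene in 6 lists by role, where red points rose, blue points fell and open points were not called. Black bars are list medians, at 0.76 for effectors and −0.48 for ATF6 and XBP1 target genes, and the dashed line is the median of all genes tested, 0.01.

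The stress programmes next to this response were read for comparison. Of 20 target genes of ATF6 and XBP1, the other arms of the unfolded protein response, 4 rose, 14 fell and 2 were not called, with a median of −0.48, against 41.5% of all genes that rose and 41.3% that fell. The chaperone gene SDF2L1 averaged 1.90 ± 0.23 CPM in shRNA and 12.3 ± 0.30 CPM in control libraries (−2.70, SE 0.13, adjusted p = 3.99e-19), and MANF, a secreted protein of the endoplasmic reticulum, averaged 27.7 ± 1.2 CPM and 89.1 ± 2.6 CPM (−1.68, SE 0.05, adjusted p = 3.26e-25). The disulfide isomerase genes PDIA4 (−1.67, SE 0.04, adjusted p = 1.79e-28) and PDIA6 (−1.42, SE 0.04, adjusted p = 2.02e-26) fell as well. HSPA5, which encodes the chaperone BiP, and DNAJB9, its cochaperone, were among the 4 that rose and were picked after their values were seen (0.41, SE 0.03, adjusted p = 1.5e-15, and 1.17, SE 0.05, adjusted p = 3e-20). Of 12 mitochondrial chaperone and protease genes, 4 rose, 7 fell and 1 was not called, with a median of −0.29 and the same shares over all genes. The chaperonin genes HSPD1 (−0.88, SE 0.03, adjusted p = 3.49e-23) and HSPE1 (−1.22, SE 0.13, adjusted p = 1.74e-10) and the protease gene CLPP (−0.76, SE 0.04, adjusted p = 1.38e-16) fell, and the protease gene HTRA2 rose (0.90, SE 0.05, adjusted p = 3.32e-18).

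Paralogs outside the bZIP family were compared with the response genes they resemble. TRIB1, a pseudokinase like TRIB3, averaged 22.5 ± 1.2 CPM in shRNA and 28.8 ± 2.6 CPM in control libraries (−0.36, SE 0.07, adjusted p = 2.52e-05). TRIB2 averaged 0.400 ± 0.079 CPM and 4.05 ± 0.76 CPM (−3.32, SE 0.26, adjusted p = 2.07e-13). CHAC2, the constitutive relative of CHAC1, was also named after its values were seen and had 11.6 ± 1.1 CPM in shRNA and 12.1 ± 1.7 CPM in control libraries (−0.07, SE 0.10, adjusted p = 0.534).

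The genes whose pattern over the 6 libraries was most like the mean of the 9 tested response genes were found by the Euclidean distance between centred log2 CPM profiles. The 5 nearest were THBS1 (distance 0.103), IRF1 (0.110), CREBRF (0.119), IRS2 (0.119) and SDSL (0.131). Their log2 fold changes lay between 2.58 and 2.69, close to that of the mean profile. CREBRF, which encodes a regulator of the CREB3 family, averaged 205 ± 2.5 CPM in shRNA and 33.4 ± 1.7 CPM in control libraries. The response genes themselves were farther from their own mean. Their distances ran from 0.565 for PPP1R15A and 0.570 for CHAC1 up to 2.99 for ATF5 and 3.93 for NUPR1. The 5 nearest genes were picked for having the smallest distances among all other tested genes, so nothing is read from their being closer. By log2 fold change, ATF5 (0.18) and NUPR1 (6.04) were the lowest and highest of the 9 response genes.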

How the data were processed

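RNA was sequenced from 3 PPM1G shRNA and 3 control libraries. The authors deposited raw counts, whole numbers for each gene and library. In the deposited FPKM table, each value equals the count over a fixed gene length and the library's total count. The build was GRCh38, per the submitters' processing notes; for aligner, counter, annotation and strand setting, nothing is given in the sources used here. No column was left unused by doubt over its sample (0 columns).

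Entrez IDs matched RefSeq (GRCh38.p14) for 17483 of 17534 genes. Counts were compared with edgeR 4.0.16 in R 4.3.3: genes passing its expression filter at a minimum of 10 counts (13060), TMM factors, group as the only term, the quasi-likelihood F-test and Benjamini-Hochberg adjustment over all genes tested, with a threshold of 0.05. "Rose" and "fell" refer to that threshold. Values with ± are mean and SD over 3 libraries. The biological coefficient of variation was 0.0393, so small differences passed. Replicate libraries are not stated to be separate cultures, so the p-values reflect only how far these samples spread, which may be technical. Alternatives used DESeq2 1.42.0 and limma 3.58.1 on log2(FPKM + a pseudocount of 1 or 0.1). The scripts were tested on simulated data.

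The response genes and all lists were chosen with earlier results of these data known. Genes named were PPM1G, the 10 response genes, the called genes of each list with the largest absolute log2 fold changes (at most 4, or 8 for effectors), neighbouring or overlapping genes, and the 5 with the most similar profile; others are said to be chosen after their values were seen. Intervals on counts are exact 95% intervals. A planned comparison of the protein sequences was not made.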

Additional observations from a re-analysis of the deposited data

How the results depend on the processing

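Between 10401 and 11183 genes changed under every alternative run, against 10821 as reported, and leaving out 1 library gave 10531 to 10836. The replicate numbers did not pair the libraries: deviations from the group means correlated by −0.022 to 0.018 between groups, and not every library was closest to its own number. With the number as a replicate block, 10805 genes changed and 34 effector genes rose. Over all alternatives 32 to 35 effector genes rose and 7 or 8 fell, and all 420 values of the 30 named list genes kept direction and call. Scaling by library totals moved the median log2 fold change of all genes from 0.01 to 0.11. Under that scaling, and with limma on log2(FPKM + 1), 4 genes for eIF2 kinases and their activators rose and 3 fell, where the reported counts were 2 and 5.

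None of the 9 tested response genes changed sign, and TRIB3 was not tested. Over the settings on counts, the log2 fold change of ATF5 lay between 0.13 and 0.28, that of NUPR1 between 5.79 and 6.33, that of DDIT3 between 3.58 and 3.82 and that of CHAC1 between 2.16 and 2.39. The scale log2(FPKM + 1) understates low genes by construction and gave 1.94 for NUPR1 and 1.10 for CHAC1. With a pseudocount of 0.1 these were 4.46 and 2.10, so on the FPKM scale both depend on the pseudocount. The GENCODE exon lengths, an alternative chosen after seeing the data, gave the following shares of the 6 bZIP transcripts in shRNA and control libraries: ATF4 48.3% and 62.5%, DDIT3 31.3% and 11.6%, CEBPB 8.37% and 10.8%, ATF3 6.78% and 3.18%, CEBPG 3.99% and 6.49%, ATF5 1.31% and 5.49%. Depth limits TRIB3, and to a lesser degree NUPR1 in control libraries.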
